A study of Cynoglossus semilaevis with 6 samples.

Results

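The natriuretic peptide receptor gene npr1 was followed in the liver of the half-smooth tongue sole (Cynoglossus semilaevis), a flatfish that is farmed in sea water and tolerates a wide range of salinity. It was taken as the feature XM_008330816.1 of the deposited expression table, which is 1 feature of 34751, together with the 14 of 230116 transcript event entries that lie at its position. The LS_L group held female fish of 10 months of age kept at 15 ppt for 60 days, and the HS_L group held female fish of the same age kept at 30 ppt, their usual salinity. Livers of 3 fish from 1 tank were pooled for every library, with 3 libraries per group, so that a replicate is a tank and values of single fish cannot be seen. Salinity in the LS_L tanks had been lowered in steps before it was held. No mutation or transgene is named for either group, and the fish of both were anesthetized with tricaine methanesulfonate at sampling.

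Natriuretic peptides are small hormones, first found in the heart, that in mammals promote the loss of salt and relax blood vessels. For marine fish, the paper states that they limit the loading of salt instead of driving its loss. Npr1 is a receptor that crosses the cell membrane once. In mammals it binds the atrial and B-type peptides outside the cell, and its inner part is a guanylate cyclase that makes the second messenger cGMP. The related receptor npr2 prefers C-type peptides and makes cGMP in the same way, whereas npr3 removes peptides from the circulation. In fish, this system is studied as a regulator of salt and water balance in the gill, kidney and gut. The comparison of LS_L with HS_L livers asks how the level of the receptor transcript differed with salinity.

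The libraries held between 16176689 and 19428740 reads assigned to features, recovered from the deposited RPKM values (reads scaled to feature length in kilobases and to library size) and the feature lengths. Reads divided by a size factor, the median of the ratios to the geometric mean library, are called normalized reads below, and the same values per length are called scaled RPKM. The size factors lay between 0.868 and 1.20. The liver label was checked with marker genes. Of 15 hepatocyte features, 12 were tested, and the summed RPKM of the list was 74299 to 100072 in LS_L livers and 103467 to 170572 in HS_L livers. As scaled RPKM the sums overlapped, at 59077 to 123963 in LS_L and 84708 to 192710 in HS_L. Markers of other tissues were present too. Over all libraries, exocrine pancreas markers summed to 86.5 to 1434 RPKM and skeletal muscle markers to 0.241 to 53.8 RPKM. Across the series, 9343 features had a mean RPKM of at least 1 and were tested. A feature was called when its p from limma, after Benjamini-Hochberg adjustment, was under 0.05 and its log2 fold change was above 1 or below -1.

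The npr1 gene lies on chromosome 18 of the Cse_v1.0 assembly, from 411420 to 431547 on the minus strand. It spans 20128 bases, and its exons add up to 3586 bases. The reference annotation names it npr1a. No other feature on the same strand overlapped it. A long noncoding RNA, LOC103393748, lies within its span on the plus strand, from 418637 to 421435, and was listed at 0 reads in all 6 libraries, although reads on exons of both genes would have been counted for neither if the counting ignored strand, which is not given in the sources used here.

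Each of the 3 LS_L libraries held less npr1 RNA than any HS_L library. Npr1 was covered by 280, 248 and 193 reads in LS_L_1, LS_L_2 and LS_L_3, with exact Poisson 95% intervals of 248 to 315, 218 to 281 and 167 to 222. In HS_L_1, HS_L_2 and HS_L_3 it was covered by 724, 691 and 599 reads, with intervals of 672 to 779, 640 to 744 and 552 to 649. These intervals cover counting error only. The 3 LS_L libraries were all below the 3 HS_L libraries, and no interval of one group reached into the other.

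After scaling by the size factors, npr1 had 232, 248 and 222 normalized reads in LS_L_1, LS_L_2 and LS_L_3, against 662, 737 and 635 in HS_L_1, HS_L_2 and HS_L_3. The means were 234 ± 12.9 in the LS_L group and 678 ± 52.6 in the HS_L group (SD, n = 3 each). The log2 ratio of these means was -1.53, and the lowest HS_L library was 2.56 times the highest LS_L library. The exact permutation test of the 2 groups, two-sided, gave p = 0.1, the smallest value that 3 libraries against 3 can give. As deposited, npr1 was at 4.51, 3.75 and 2.77 RPKM in LS_L livers and at 12.5, 10.1 and 9.19 RPKM in HS_L livers, again without overlap.

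**Figure D1:**
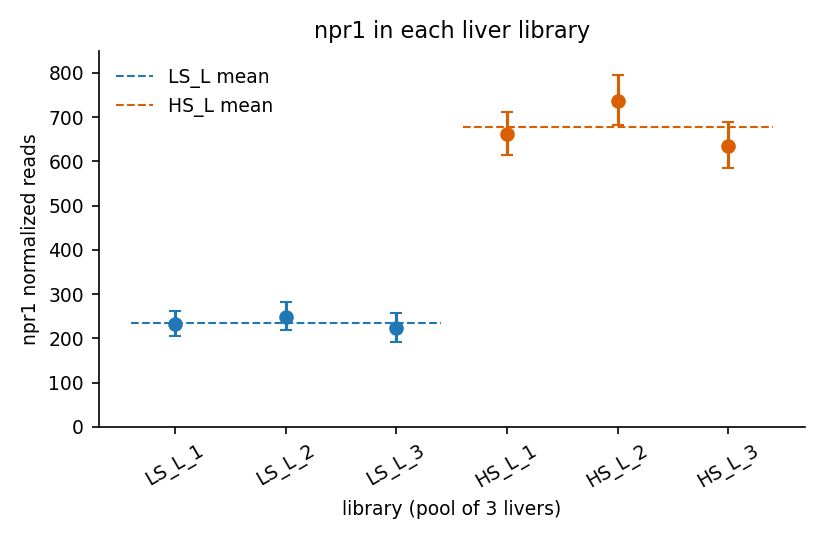
Normalized reads of npr1 (vertical axis) in each of the 6 liver libraries, with LS_L in blue and HS_L in orange. Bars are exact Poisson 95% intervals and dashed lines are group means. The LS_L libraries sit between 222 and 248 and the HS_L libraries between 635 and 737.

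In the fit across all tested features, the log2 fold change of npr1 on the log2(scaled RPKM + 1) scale was -1.31 (SE 0.16, 95% interval -1.69 to -0.93). The added 1 makes this value smaller in size than the ratio of the means. The unadjusted p was 8.27e-05 and the Benjamini-Hochberg adjusted p from limma was 0.0732, so that npr1 passed the threshold on the fold change and missed that on the adjusted p. It was therefore not called by limma. The paper, which ran DESeq2 on read counts, lists npr1 among its genes down-regulated in the LS_L group. That test was not rerun here, and the other settings below also used limma. In the limma fit, of all tested features 4 were called (0.0428%), all of them higher in LS_L, and 0 were called lower (0%). At the same thresholds, the paper reports many more differentially expressed genes, most of them down-regulated in the LS_L group. The lack of calls lower in LS_L thus belongs to the limma fit and not to the paper's test. At an unadjusted p under 0.05, limma gave 614 features (6.57%), of which 267 were lower in LS_L (2.86% of those tested), while limma-voom on the recovered reads gave 258 and also called 0 lower. By its p, npr1 was number 9 of the 9343 features and number 2 of the 4281 with a lower level in LS_L. Under the other settings below, its rank by p among all tested features lay between 8 and 35, the last with scaling by library size only.

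Groups without overlap were found in 1191 of the tested features (12.7%), with LS_L below in 462 (4.94%) and LS_L above in 729 (7.8%), so that a lack of overlap by itself was common. With LS_L below, a gap between the nearest libraries at least as wide as that of npr1 was seen in 15 features, npr1 included. After scaling by the size factors, the libraries of a group were close to each other for npr1. Its within-group SD was 0.084 on the log2 scale, against a median of 0.322 over all tested features, and 1.74% of the tested features had an SD as low. In normalized reads, the highest library was 1.12 times the lowest in the LS_L group and 1.16 times in the HS_L group. The spread was wider as deposited RPKM, from 2.77 to 4.51 in LS_L and from 9.19 to 12.5 in HS_L. With scaling by library size only, the SE of the log2 fold change was 0.25, against 0.16 as reported.

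The receptor was at a middling level among liver transcripts. Ranked by RPKM within each library, npr1 lay above 41.5% to 43.3% of the tested features in LS_L livers and above 70.6% to 73.7% in HS_L livers. The ranks of the 2 groups were apart by more than their spread, as the levels were.

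**Figure D2:**
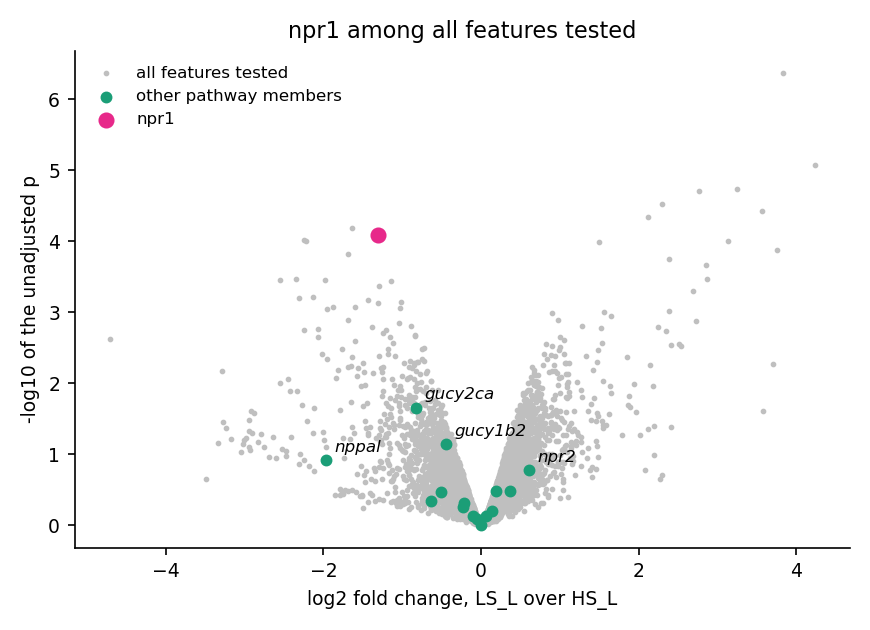
Log2 fold change of LS_L over HS_L (horizontal axis) against -log10 of the unadjusted limma p (vertical axis) for the 9343 tested features in grey, the 15 other tested pathway members in green and npr1 in pink. At -1.31, npr1 stands among the smallest p-values on the side lower in LS_L, and the other members lie further down.

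Under each of 14 other settings the log2 fold change of npr1 stayed between -1.53 and -1.26, beyond -1 in all 14, and the unadjusted p was at most 0.000972. The adjusted p lay between 0.0699 and 0.526, so that npr1 was called in none of them. With the replicate number as a block, the adjusted p from limma was 0.202. In that setting, and without LS_L_2, LS_L_3, HS_L_1 or HS_L_3, no feature at all was called. A missed call there is thus not particular to npr1.

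**Figure D3:**
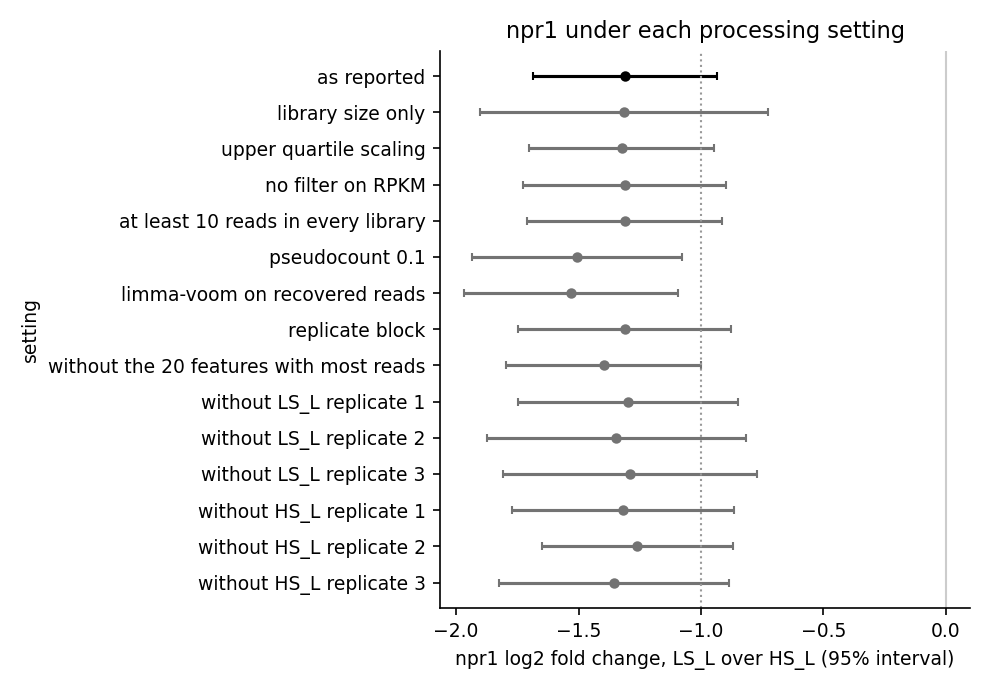
Log2 fold change of npr1, LS_L over HS_L (horizontal axis), with its 95% interval from limma, as reported and under each of 14 other processing settings (vertical axis). The dotted line is the fold change threshold of -1. Every point lies between -1.53 and -1.26, and no interval reaches 0.

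A second readout of the same libraries was the set of transcript events. These entries give the start, the end and the splicing of transcripts assembled in each library, each with an FPKM (fragments scaled to transcript length and library size). It was read as the FPKM of the transcripts that carry the event, but the rule behind it is not given in the sources used here. Every library had 1 start and 1 end of npr1, at the same positions in all 6. The start was the first exon of 138 bases, from 431410 to 431547, and the end was the last exon of 348 bases, from 411420 to 411767.

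Transcripts that carried the first exon had an FPKM of 2.14, 1.95 and 0.865 in LS_L livers, against 6.49, 7.85 and 6.85 in HS_L livers. The LS_L values were again all below the HS_L values. The means were 1.65 ± 0.69 in the LS_L group and 7.06 ± 0.70 in the HS_L group (SD, n = 3 each), with p = 0.1 in the two-sided exact permutation test, the smallest possible. These values come from the same reads as the counts and are not an independent measurement of the fish.

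Transcripts that carried the last exon gave another picture. Their FPKM was 7.70, 9.14 and 5.81 in LS_L livers, against 26.7, 7.85 and 6.85 in HS_L livers. The groups overlapped, with LS_L_2 above HS_L_2 and HS_L_3. The means were 7.55 in the LS_L group and 13.8 in the HS_L group, and the two-sided exact permutation test gave p = 0.6. Without HS_L_1 the difference of the means was 0.205 FPKM with LS_L higher, whereas it was -6.23 FPKM with all libraries.

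On this reading, the end and the start of npr1 were not always carried by the same amount of transcript within a library. The end was 3.61, 4.70 and 6.72 times the start in LS_L livers, against 4.11, 1 and 1 times in HS_L livers. Among genes with 1 start and 1 end, 83.9% to 86.9% had equal values within 0.1%, and 5.53% to 9.69% had an end of at least 2 times the start. The 3 LS_L libraries and HS_L_1 were therefore in a minority that HS_L_2 and HS_L_3 were not in. Among genes with 1 start and 2 or more ends, the start equalled the sum of the ends in only 64.6% to 72.4%. How event values add over transcripts is thus uncertain, and so is the contrast of the 2 ends.

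**Figure D4:**
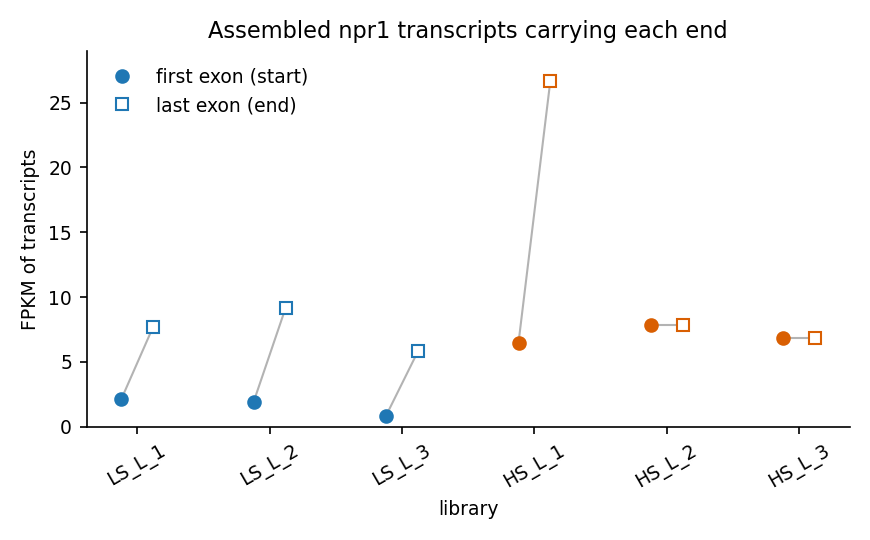
FPKM (vertical axis) of the assembled npr1 transcripts that carry the first exon (filled circles) and the last exon (open squares) in each library, with LS_L in blue and HS_L in orange. Grey lines join the values of 1 library. First-exon values are 0.865 to 2.14 in LS_L and 6.49 to 7.85 in HS_L, whereas last-exon values overlap between the groups.

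One splicing event was listed for npr1. In LS_L_3 an intron of 76 bases (event from 413495 to 413572) was listed as retained at 0.943 FPKM and as spliced out at 0.865 FPKM, the value of the start in that library. The event was not listed in the other 5 libraries. LS_L_3 had the fewest npr1 reads, 193, and no test was made on a single library. The antisense RNA LOC103393748 had an event FPKM of 0.0813 in LS_L_2 and was at 0 in the event entries of the other libraries.

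The other guanylate cyclase receptor of the family, npr2, was more abundant and was not lower in the LS_L group. It stood at 1811, 3420 and 3804 normalized reads in LS_L livers, against 1187, 2005 and 2671 in HS_L livers. The groups overlapped, and the log2 fold change was 0.61 (SE 0.40, limma adjusted p = 0.871). Per length, npr2 was at 37.5, 55.2 and 50.6 RPKM in LS_L livers and at 23.9, 29.2 and 41.3 RPKM in HS_L livers, above npr1 in every library.

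The balance of the 2 receptors was also set out within each library, where the size factors cancel. For every 100 units of npr2 RPKM there were 12.03, 6.80 and 5.48 units of npr1 RPKM in LS_L livers, against 52.3, 34.4 and 22.3 in HS_L livers. The groups did not overlap, and the two-sided exact permutation test gave p = 0.1, the smallest possible. This ratio was chosen after the data had been seen. No feature was matched to npr3.

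RNA of the peptides that could bind these receptors was scarce or uneven in the liver libraries. The atrial-type peptide nppal was the single tested ligand, with 177, 8.004 and 9.22 normalized reads in LS_L livers and 99.7, 569 and 56.2 in HS_L livers. Its log2 fold change was -1.96 (SE 1.11), with a limma adjusted p of 0.836, and the groups overlapped. Nppal was also on the heart marker list, where the other tested feature, myl7, was highest in HS_L_3, at 122 normalized reads. Skeletal muscle markers summed to 34.0, 0.362 and 0.241 RPKM in LS_L livers and 53.8, 34.3 and 3.44 in HS_L livers, so the pools were uneven in RNA of other tissues. Whether the nppal RNA came from liver cells was not tested. LS_L_1 and HS_L_2 were the high libraries for nppal, whereas the normalized reads of npr1 were level within each group.

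The remaining ligands were below the filter. The C-type peptide nppc stood at 51.5, 8.004 and 4.61 normalized reads in LS_L livers, and 1.83, 7.47 and 2.12 in HS_L livers. The C-type peptide nppcl had at most 4.002 normalized reads in any library. The B-type peptide nppb had 13.3 normalized reads in LS_L_1 and at most 1.06 in any other library. Osteocrin (ostn), which in mammals binds npr3, had 0.915 normalized reads in HS_L_1 and was at 0 in the other 5.

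Besides the receptors, 2 of the 3 tested guanylate cyclase features did not overlap between the groups in normalized reads, both with LS_L below, as did 4.94% of all tested features. Gucy2ca, a homologue of the receptor for guanylins and bacterial enterotoxin in mammals, stood at 341, 222 and 247 normalized reads in LS_L livers, against 692, 585 and 343 in HS_L livers. LS_L_1 and HS_L_3 were only just apart, and in RPKM as deposited the groups overlapped, with LS_L_1 at 6.52 and HS_L_3 at 4.88. Its log2 fold change was -0.82 (SE 0.28, unadjusted p = 0.022, limma adjusted p = 0.719), and it overlaps another feature, so that its count is uncertain.

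Gucy1b2, a subunit of the soluble cyclase that responds to nitric oxide, stood at 104, 171 and 165 normalized reads in LS_L livers, against 230, 210 and 191 in HS_L livers. Its log2 fold change was -0.44 (SE 0.21, limma adjusted p = 0.780). Another subunit, gucy1b1, overlapped between the groups and had a log2 fold change of -0.10.

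**Figure D5:**
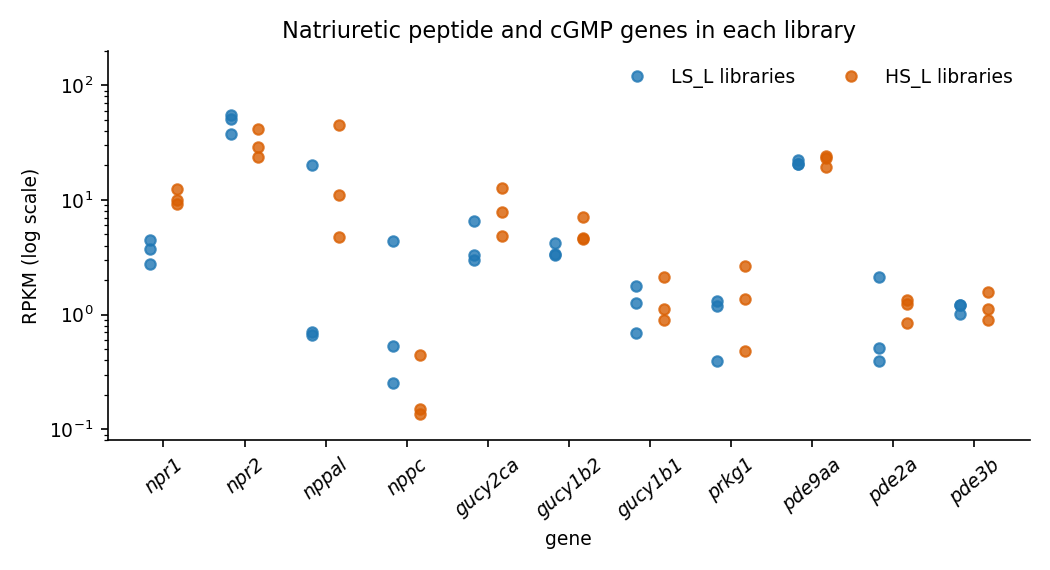
RPKM on a log scale (vertical axis) of npr1 and 10 other natriuretic peptide and cGMP genes (horizontal axis), 1 point per library, with LS_L in blue left of HS_L in orange. The npr1 points of LS_L (2.77 to 4.51) lie below those of HS_L (9.19 to 12.5), while npr2, nppal, prkg1 and the phosphodiesterases overlap between the groups.

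Downstream of cGMP and elsewhere in the pathway, few features could be tested. Of the cGMP-dependent kinases 1 of 5 features was tested, of the kinase substrates 0 of 24 and of the gated channels 0 of 7. The cGMP-dependent kinase prkg1 had a log2 fold change of -0.23 (SE 0.37), with overlap. Of the phosphodiesterase families that break down cGMP, 4 features were tested, pde9aa, pde2a, pde3b and the noncatalytic subunit pde6d. They had log2 fold changes from -0.22 to 0.06. The insulin-degrading enzyme ide, which also cleaves natriuretic peptides in mammals, stood at 0.19. No guanylin feature was matched. The cyclase activators guca1aa, guca1b and guca1c did not pass the filter, and neither did a cGMP-gated channel or a listed kinase substrate. The single nitric oxide synthase matched, nos1, did not pass it either. Of 24 kinase substrate features 20 had no read, many of them transcripts that overlap others on the same strand, so their levels were not measured well.

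Receptors and peptides of other osmoregulatory hormones gave 4 tested features, with log2 fold changes from -0.64 to 0.37 and overlap in each. These were the growth hormone receptor ghra, the endothelin receptor ednraa, the vasodilator peptide adma and the receptor partner ramp2. Among features below the filter, the prolactin receptor prlrb stood at 9.13, 13.0 and 4.61 normalized reads in LS_L livers, against 27.4, 14.9 and 13.8 in HS_L livers. The calcitonin receptor-like gene calcrla had at most 0.83 in LS_L and 1.06 to 2.75 in HS_L, too few reads for a comparison.

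Over the 11 pathway lists, 98 symbols were listed and 116 features matched, of which 53 had no read and 16 were tested. Features are single transcripts, and many of the 53 overlap others on the same strand, up to 14 for kcnma1a and 8 for uts2r. Reads on shared exons were counted for none of the overlapping features, so a feature without reads need not mean a silent gene. None of the 16 was called by limma, against 0.0428% of all tested features, and 2 of them, npr1 and gucy2ca, had an unadjusted p under 0.05, against 6.57% of all tested features. Besides npr1, 5 of the 15 tested members were higher in LS_L and 10 were lower, with a median log2 fold change of -0.10, and none of these 15 differences passed the test. Over all tested features the median was 0.03, with 5062 higher and 4281 lower.

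The features with levels most like npr1 over the 6 libraries were ranked by Pearson's r of log2(scaled RPKM + 1), as a description. The points share libraries and size factors. All 10 top features had LS_L below HS_L without overlap, as did 4.94% of all tested features. This follows largely from the choice, since the groups did not overlap for npr1. The 10 features were LOC103387401 (r 0.991), otos, nt5dc2, fbxl2, LOC103396909, dnhd1, nlrc5, hira, LOC103398008 and abat (r 0.974).

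In this group otos and abat stood out by size. Otos, which encodes the small protein otospiralin known from the mammalian inner ear, stood at 24.1, 23.0 and 19.6 normalized reads in LS_L livers, against 79.6, 115 and 107 in HS_L livers. Its log2 fold change was -1.64 (SE 0.19, limma adjusted p = 0.0732). Abat, the enzyme that breaks down the amino acid GABA, stood at 51.5, 20.0 and 13.8 normalized reads in LS_L livers, against 312, 351 and 206 in HS_L livers. Its log2 fold change was -2.25 (SE 0.28, limma adjusted p = 0.0732), and it overlaps another feature.

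The other 8 had smaller differences, with log2 fold changes from -1.01 to -0.33 and none called. LOC103398008, described as a regulatory subunit of phosphatidylinositol 3-kinase, stood at 37.4, 58.0 and 46.1 normalized reads in LS_L livers, against 136, 128 and 143 in HS_L livers. Nt5dc2, which encodes a protein with a nucleotidase domain, stood at 93.0, 99.0 and 77.2 in LS_L livers, against 218, 214 and 174 in HS_L livers. Hira, a histone chaperone, had a log2 fold change of -0.47 and nlrc5, known in mammals as a regulator of MHC class I genes, one of -0.33. LOC103398008, hira, dnhd1 and LOC103387401 also overlap other features on the same strand, so that their counts are uncertain.

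When the group means were subtracted first, other features came nearest to npr1. These were coq8b (r 0.991), LOC103394085, synj1, brms1lb and tlk2 (r 0.983), over the same 6 libraries. All 5 overlapped between the groups, with log2 fold changes from -0.20 to 0.12. What they shared with npr1 was a high value in LS_L_2 and HS_L_2, whereas their levels did not differ by salinity beyond the spread.

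At the neighbours of npr1 on chromosome 18 the groups overlapped. The nearest counted gene, ints3, a subunit of the Integrator complex that processes small nuclear RNAs, lies 678 bases away on the same strand and past the last exon of npr1. It stood at 504, 440 and 352 normalized reads in LS_L livers, against 492, 355 and 628 in HS_L livers, with a log2 fold change of -0.14 (SE 0.24). On the other side, Novel00258 and LOC103393806 had log2 fold changes of 0.42 and 0.33, and LOC103393807, beyond ints3, had one of -0.81 (SE 1.27). None of the 4 was called by limma, and a gon4la transcript next to them was listed at 0 reads throughout.

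Markers of other cell types were compared beside npr1, since in bulk liver fewer cells of a type and less RNA per cell cannot be told apart. Endothelial cells express npr1 in mammals. The endothelial list had 7 tested features of 17, with none called by limma, none at an unadjusted p under 0.05 and a summed scaled RPKM of 22.3 to 38.0 in LS_L and 26.3 to 33.3 in HS_L. Of the 7, 4 were lower in LS_L and 3 higher, with a median log2 fold change of -0.25, against 0.03 over all tested features. Egfl7, with a log2 fold change of 0.03, was the largest part of the sum. As deposited RPKM it was 35.3, 13.7 and 8.62 of sums of 47.8, 26.4 and 18.0 in LS_L livers. In HS_L livers it was 23.5, 9.97 and 17.0 of sums of 40.7, 23.3 and 30.0. Kdr, a receptor for vascular growth factor, stood at 350, 411 and 384 normalized reads in LS_L livers, against 352, 373 and 373 in HS_L livers, with a log2 fold change of 0.05 (SE 0.16). The scavenger receptor stab1 and the adhesion molecule pecam1a, 2 of the 7, did not overlap between the groups in normalized reads, with LS_L below, as did 4.94% of all tested features. Their log2 fold changes were -0.29 and -0.68, with limma adjusted p of 0.879 and 0.779, and in RPKM as deposited stab1 overlapped, with LS_L_1 at 1.42 and HS_L_2 at 1.04. Both genes overlap other features on the same strand, so that their counts are uncertain.

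Of the 9 marker lists, the exocrine pancreas list was the single one whose sum of scaled RPKM did not overlap between the groups. Amylase, LOC103389307 and LOC103394162 had entered this list by their descriptions in the authors' list of differentially expressed genes. That list comes from these same libraries, so the separation of the sum was partly set by the choice of features. The pancreas list summed to 149, 123 and 107 in LS_L livers, against 306, 1620 and 331 in HS_L livers. There npr1 was at 3.59, 3.83 and 3.43 scaled RPKM in LS_L livers, against 10.2, 11.4 and 9.80 in HS_L livers. Most of the sum was amylase. As deposited RPKM, amylase was 182, 102 and 71.8 of sums of 187, 120 and 86.5 in LS_L livers. In HS_L livers it was 219, 886 and 294 of sums of 374, 1434 and 310. Of its 5 features 4 were tested and none was called by limma, while 3 had an unadjusted p under 0.05 with LS_L lower, against 2.86% of all tested features. Amylase and LOC103394162 are among these 3, so that share is no fair background for a list partly drawn from the authors' called genes. Amylase, a starch-digesting enzyme, stood at 4299, 3091 and 2637 normalized reads in LS_L livers, against 5310, 29694 and 9301 in HS_L livers, without overlap of the groups. Its feature shares its position with another on the same strand, so that its count is uncertain. LOC103389307, below the filter, did not overlap either, whereas cel.2, LOC103394162 and the carboxypeptidase cpb1 overlapped. Groups without overlap and with LS_L below were seen in 4.94% of all tested features, again no fair background for this list. The hepatocyte sum did not overlap as deposited RPKM and overlapped after scaling, at 59077 to 123963 in LS_L and 84708 to 192710 in HS_L. Among its 12 tested members, only hpxa did not overlap, with LS_L below, as did 4.94% of all tested features. Hpxa stood at 5844 to 18950 normalized reads in LS_L and 82641 to 1109640 in HS_L, and the other 11 tested members overlapped. As deposited RPKM, hpxa was 161 to 777 in LS_L livers and 2528 to 32032 in HS_L livers, and it is part of the hepatocyte sum. The part of these cell types in the npr1 difference was not tested.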

How the data were processed

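Liver RNA of 6 pools was sequenced as paired ends. According to the methods, the authors aligned clean reads with TopHat, dropped those with more than 1 mapping position and ran HTSeq in union mode on what was left, where a read on several overlapping features counts for none. The strand setting is not given in the sources used here. The submitters' processing notes also name Bowtie2 2.0.6 and DESeq. The RPKM values were deposited by the authors for each library. A signal per group, the authors' mean of reads divided by size factors, was deposited with the feature lengths and positions. The authors also deposited event lists with the FPKM of assembled transcripts, and the tool behind them is not given in the sources used here. Columns of the authors' own comparison (fold changes and p-values) were not used. Names and descriptions were taken from the authors' list of differentially expressed genes. A feature matched to a gene list by description could therefore come only from the genes that the authors had called.

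Multiplying RPKM by length and dividing by a step fitted for each library gave back whole reads for 99.9% of the values, zeros included. The tolerance was 0.01 of a read at low counts and grew with the count, so that very large counts passed in any case. Size factors were medians of ratios, and the deposited group means came out within 0.1% for 99.98% of the features with a mean above 0. The deposited values are RPKM and no counts, and limma 3.58.1 in R 4.3.3 was chosen for the test. It was run with lmFit and eBayes (trend, robust) on log2(scaled RPKM + 1) for features whose mean RPKM reached 1, without covariates. A count test like that of the paper could have been run on the recovered reads but was not. Tables were handled in Python 3.11.15 (scipy 1.17.1, numpy 2.4.6, pandas 2.3.3) and plots drawn with matplotlib 3.10.9. The code was tested on simulated data. Names came from RefSeq accessions for 20016 features, gene IDs for 193 and positions for 11000 (Cse_v1.0), and 3542 had none. Members named LOC could not be matched to lists by symbol.

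The genes named are npr1, pathway members that are receptors or ligands or do not overlap between groups, the 10 features with the highest r with npr1, the 5 with the highest r within groups and 3 neighbours on each side. Kdr, egfl7, stab1, pecam1a, the exocrine pancreas features, hpxa and the other pathway members were named after their values had been seen. The gene and the lists were chosen with earlier results of these data known.

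The replicate numbers come from the sample labels. Deviations from the group means correlated at 0.173, 0.165 and 0.232 between libraries with the same number, so a replicate block was fitted as an alternative. Other pairs lay between -0.457 and 0.221, and no source says that same-numbered tanks shared anything. Other alternatives were the scaling, the filter, the pseudocount, limma-voom, removal of the 20 features with most reads and each library left out.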

Additional observations from a re-analysis of the deposited data

How the results depend on the processing

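The log2 fold change of npr1 kept its direction and its side of both thresholds in all 14 alternatives. Leaving out each library moved it between -1.36 and -1.26, with limma adjusted p from 0.131 to 0.526. The number of features called, 4 as reported, was 10 with library size only, 2 with upper quartile scaling, 1 with no filter on RPKM, 7 with at least 10 reads in every library and 0 with the replicate block, where 793 features had an unadjusted p under 0.05. Leaving out single libraries gave 0 to 17 called features: 17 without LS_L_1, 2 without HS_L_2 and 0 without any 1 of the others. Features called lower in LS_L were 1 with library size only, 3 without LS_L_1 and 1 without HS_L_2, and npr1 was not among them. No pathway member was called as reported or in any alternative. None could be with the replicate block or without LS_L_2, LS_L_3, HS_L_1 or HS_L_3, where 0 features passed. The difference of the last-exon FPKM, -6.23 as reported, ranged from -9.69 to 0.205 with single libraries left out and turned round, to 0.205, only without HS_L replicate 1, the library with the highest value. With 3 pools per group, an exact test of 1 value cannot reach a p below 0.1.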
